A study of Mus musculus with 12 samples.

Results

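The response of wild-type follicular B cells to 12 h of stimulation through the B cell receptor (BCR) was read from 4 of the 12 arrays of the series, over 18193 genes. The 2 stimulated arrays came from cells cultured for 12 h with goat F(ab')2 fragments against mouse IgM at 10 µg/ml, and the 2 control arrays from cells kept for 3 h without stimulus, so time in culture differs between the groups together with the stimulus, and their effects cannot be told apart. Follicular B cells, the recirculating B cells of the spleen, had been sorted from C57Bl/6 mice aged 6 weeks as B220+ cells with high CD23 and low CD21, to a purity above 98%. The other arrays used beside them were 2 of wild-type cells after 3 h with anti-IgM, and 2 unstimulated (3 h of culture) and 2 stimulated (12 h) arrays of cells that carry the IkL/L alleles of Ikzf1, which lower the transcription factor Ikaros. Each group holds 2 arrays (n = 2), written below as replicate 1 and then replicate 2.

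Anti-IgM cross-links the membrane immunoglobulin of a B cell. The receptor's Cd79a and Cd79b chains then recruit the kinase Syk, and calcium, Ras and ERK, PI3K and NF-κB pathways carry the signal to the nucleus. Over hours a resting B cell leaves quiescence, grows, takes up nutrients and prepares to divide, and without help from T cells many such cells later die.

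Signals are given on the log2 scale as deposited, so 1 unit is a 2-fold difference. A gene was counted as higher or lower at an adjusted p under 0.05 (limma over all genes, Benjamini-Hochberg). The median array signal lay between 3.12 and 3.21, and a floor was set at 4.21, 1 unit above the highest of these. Where an array of the lower group was under the floor, the fold is given as "at least". B cell identity was clear on all 4 arrays: the 9 measured B cell markers were above the floor on each, with a mean log2 signal of 10.08 and 10.26 without stimulus and of 8.98 and 8.99 at 12 h. Of these 9, 8 were called lower at 12 h, as were 6 of 6 follicular B cell markers. Only 3 of 9 marginal zone and B1 cell markers and 2 of 8 plasma cell markers were under the floor on all 4 arrays. In these lists Cd1d1, Mzb1 and Sdc1 were called lower and Slamf7 and Xbp1 higher. Markers of other cells were mostly dim, with 8 of 11 T cell, 7 of 7 natural killer cell, 6 of 9 monocyte and macrophage, 4 of 7 dendritic cell, 2 of 4 erythroid and 4 of 5 platelet markers under the floor on all 4 arrays, among them Cd3e, Csf1r, Cd14 and Pf4. Of these markers only Adgre1, a macrophage gene, passed the threshold (3.92 and 4.20 against 4.80 and 5.03, log2 difference 0.86, adjusted p = 0.0198), a call that did not hold without unstimulated replicate 1 or 12 h replicate 2. Neutrophil markers followed the replicate: their 7 signals summed to 21.5 and 22.9 on the replicate 1 arrays and to 29.8 and 35.7 on the replicate 2 arrays, unstimulated and 12 h in turn, and their part in the results was not tested. Across genes, the 2 unstimulated arrays correlated with r = 0.993 and the 2 arrays at 12 h with r = 0.99, and Xist (10.69 and 3.22 without stimulus, 10.01 and 3.47 at 12 h) shows that the 2 replicates came from mice of different sex. The labels say no more about these sources. The p values rest on the spread between replicates pooled over all 6 groups, the 3 h and IkL/L arrays included.

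After 12 h, 3415 genes had changed, 1839 higher (10.1% of genes tested) and 1576 lower (8.66%), together 18.8%. Large changes were mostly falls: 828 genes were at least 2-fold lower and 753 at least 2-fold higher, and at a factor of 8 there were 51 falls and 15 rises. Among the 7825 genes with a mean above the floor over the 4 arrays, 21.7% were higher and 18.2% lower, which is the nearer background for lists of expressed genes. A list called at shares near these does not stand out from them. The median difference over all genes was 0.047. Values of this kind are relative to each array, so a change in total RNA per cell does not show. Scaling to 8 housekeeping genes, of which Gusb, Hprt and Tfrc were themselves called higher (Hprt not without unstimulated replicate 2 or 12 h replicate 1), shifted all genes by -0.282 and left 690 higher and 2045 lower, so that 25.2% instead of 53.9% of calls were rises; centring on the median gave 1599 and 1659. Without all WT replicate 1 arrays 1639 genes were called, and 1589 without all WT replicate 2 arrays, while leaving out single arrays gave 2237 (without unstimulated replicate 2) to 2784. In these bulk samples fewer cells of a type and less RNA per cell cannot be told apart.

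The largest rises with all signals above the floor included enzymes of amino acid metabolism, a signalling protein and transcription regulators. Chac1, which degrades glutathione and is a target of the amino acid stress response, went from 4.72 and 5.02 to 7.84 and 8.74, a 10.7-fold rise (log2 3.42, SE 0.45, adjusted p = 0.000486). Bcat1, which transaminates branched-chain amino acids, went from 5.90 and 5.71 to 9.02 and 9.32 (10.3-fold, SE 0.29, adjusted p = 5.2e-05). Vav3, a guanine nucleotide exchange factor, went from 4.43 and 4.96 to 7.70 and 8.20 (9.55-fold, SE 0.33, adjusted p = 0.000106). Groups that do not overlap were a condition for genes of this set. Ahr, the aryl hydrocarbon receptor, rose 8.58-fold, the zinc finger factor Egr2 7.56-fold, Hivep3 and the adenosine kinase Adk 7.05-fold each, the mitochondrial micropeptide Mtln 6.67-fold, the actin cross-linker Actn1 6.62-fold, the asparagine synthetase Asns 6.39-fold, and Cflar, an inhibitor of death receptor signalling, 5.75-fold. Renbp (5.79-fold), Cyp51 (5.73-fold) and Plscr1 (5.66-fold) complete this set with Angptl6 (5.73-fold, adjusted p = 0.0221), the only one of the 15 that lost its call when an array was left out (without either unstimulated array or 12 h replicate 2).

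Among genes that started under the floor, the acyl-CoA thioesterase Acot7 went from 3.77 and 3.73 to 7.30 and 7.12, at least 8.0-fold (adjusted p = 5.05e-05). Cth, which makes cysteine, rose at least 7.79-fold, Atxn1 at least 6.82-fold and Pdcd1, which encodes the inhibitory receptor PD-1, at least 5.85-fold. Pdcd1 was at 3.58 and 3.24 without stimulus, at 3.27 and 3.32 after 3 h and at 6.48 and 7.03 after 12 h. The 12 h arrays thus stood apart from both earlier groups (adjusted p = 1.84e-05 against unstimulated and 6.9e-05 against 3 h).

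The largest falls reached the cytoskeleton, cyclic nucleotide breakdown and surface proteins. Vim, the intermediate filament vimentin, fell from 10.49 and 10.48 to 5.95 and 6.45, a 19.5-fold fall (log2 -4.28, SE 0.20, adjusted p = 2.15e-06). Pde2a, a cyclic nucleotide phosphodiesterase, fell from 10.71 and 11.23 to 6.59 and 6.93 (18.5-fold, adjusted p = 7.68e-06). Ltb, which encodes the lymphotoxin beta that follicular B cells use to maintain stromal cells, fell from 10.30 and 10.73 to 6.46 and 6.66 (15.5-fold, adjusted p = 9.18e-06). Groups that do not overlap were again a condition for this set. Kbtbd11 fell 18-fold, the guanine nucleotide exchange factor Arhgef18 17.3-fold, the ubiquitin ligase Mylip 16.2-fold, Tsc22d1 15.7-fold, the mitochondrial acetate enzyme Acss1 15.6-fold, the linker histone H1f2 15.3-fold, the complement regulator Cd55 and the kinase Lrrk2 14.4-fold each, and the adhesion molecule Cd2 13.2-fold. Neurl3 (42.0-fold), Rasa3 (28.5-fold) and Abca1 (25.4-fold) stood first. With at least 1 array at 12 h under the floor, Spata13 fell at least 20.6-fold, the sterol exporter Abcg1 at least 14-fold, the integrin chains Itgb3 and Itgb7 at least 12.4-fold and 12.2-fold, the interleukin 10 receptor chain Il10ra at least 11.8-fold and Tent5a at least 11.3-fold.

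**Figure D1:**
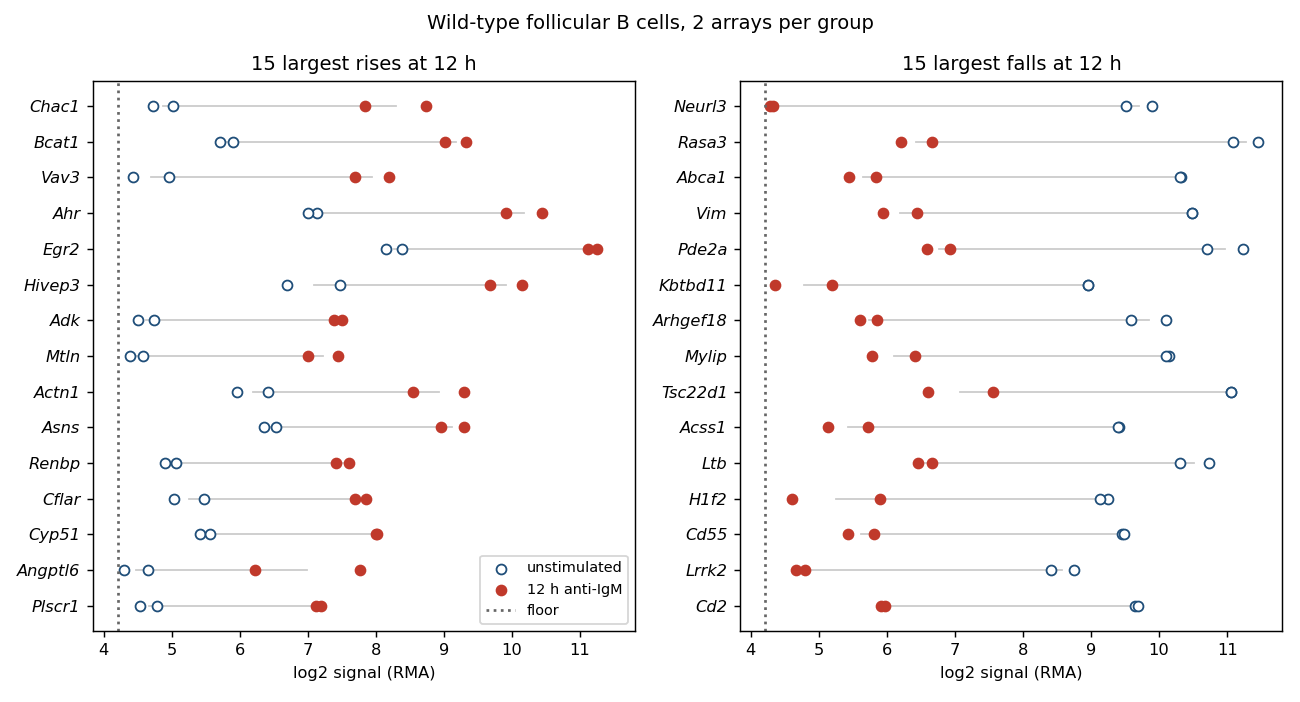
Log2 signal (x axis) of the 15 largest rises and the 15 largest falls with all 4 arrays above the floor, 1 gene per row; open circles are the 2 unstimulated arrays, filled circles the 2 arrays after 12 h, grey lines join the group means and the dotted line is the floor at 4.21. Genes were taken only if their groups do not overlap, and Angptl6 (6.22 and 7.77 at 12 h) shows the widest spread among the rises.

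Components of the receptor pathway itself were called lower more often than higher. Of 27 measured genes for BCR chains and proximal signalling 13 fell and 3 rose, with a median log2 difference of -0.55. Syk, the kinase that binds the phosphorylated receptor chains, had signals of 10.83 and 11.15 without stimulus, 7.43 and 8.23 after 3 h and 8.27 and 8.90 after 12 h. It was 5.30-fold lower at 12 h (SE 0.28, adjusted p = 0.000266). The PI3K catalytic subunit Pik3cg fell at least 5.07-fold, the adaptor Dapp1 4.44-fold, the Ras exchange factor Rasgrp1 3.28-fold and the receptor chain Cd79b 2.34-fold. The rises were Vav3, Pik3ap1, an adaptor that links the receptor to PI3K (2.21-fold), and Cd81, a tetraspanin of the B cell surface (2.05-fold). Cd81 was at 8.62 and 8.39 without stimulus, 8.21 and 8.18 after 3 h and 9.42 and 9.66 after 12 h. The 13 falls became 6 without WT replicate 1 and 9 without WT replicate 2, where Pik3ap1 (adjusted p = 0.179) and Cd81 (adjusted p = 0.0631) also lost their calls, leaving 1 rise.

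Restraints of the same pathway fell alongside it. Of 31 inhibitory receptors, phosphatases and other negative regulators 18 fell and 1 rose (median -1.04). Pik3ip1, an inhibitor of PI3K, was still at 8.25 and 8.59 after 3 h, against 8.39 and 8.46 without stimulus, and stood at 4.82 and 5.05 after 12 h (11.2-fold lower, adjusted p = 4.58e-06). Dgka, which removes the second messenger diacylglycerol, fell 9.68-fold, from 10.42 and 10.76 to 7.11 and 7.52, and was already at 6.62 and 7.04 after 3 h. The ubiquitin ligase Cblb fell 4.88-fold. The 1 rise, Ubash3b (log2 0.61), lost its call without either unstimulated array or 12 h replicate 2. The falls numbered 12 without either WT replicate.

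Feedback and calcium genes moved in both directions, at shares not far from the 21.7% higher and 18.2% lower of genes above the floor. These shares were 14.3% each way for the ERK list, 16.7% and 25.0% for calcium genes and 21.4% and 14.3% for the NF-κB list. Of 14 ERK phosphatases and Sprouty family genes 2 rose and 2 fell: Spry2, which dampens signals from Ras to ERK, was at 3.37 and 3.48 without stimulus and at 5.73 and 5.67 after 12 h (at least 2.81-fold), Spred1 rose 1.92-fold, and the phosphatase Dusp1 fell 5.55-fold, from 7.51 and 7.31 to 4.87 and 5.01. The second fall, Dusp5 (log2 -1.48), was lost without unstimulated replicate 1 or either 12 h array. Of 24 calcium, calcineurin and NFAT genes 4 rose and 6 fell. Rcan1, a calcineurin regulator, rose from 4.69 and 5.13 to 6.85 and 7.0 (4.03-fold) and the calcium channel Orai1 from 6.50 and 6.13 to 7.87 and 7.92 (2.98-fold). In the other direction the inositol trisphosphate receptor Itpr3 fell 6.59-fold, the factors Nfatc3 and Nfat5 2.57-fold and 2.27-fold, and the calcineurin subunit Ppp3ca 2.52-fold. The 6 falls became 4 without any one of 3 arrays, namely both unstimulated arrays and 12 h replicate 1, and the 4 rises became 2 with housekeeping scaling or without WT replicate 2. Of 14 NF-κB subunits and inhibitors 3 rose, with Tnip2 at 1.99-fold and Nfkbie at 1.97-fold, and 2 fell, with Bcl3 at 4.19-fold; leaving out any of the 4 arrays left 2 and 1, since Nfkbib and Cyld lost their calls each time, and housekeeping scaling left 1 rise.

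Immediate early genes were high after 3 h and largely back after 12 h. Of 23 such genes 6 were higher at 12 h than without stimulus (26.1%) and 2 lower (8.7%), against 21.7% and 18.2% of genes above the floor. At 12 h, 10 were lower than at 3 h and 1 was higher. Over all genes these backgrounds are 4.33% lower and 6.50% higher. Of the 7801 genes whose mean over the 12 arrays was above the floor, 748 were lower and 1049 higher than at 3 h. The genes of the Egr family stayed up: Egr2 had signals of 8.15 and 8.38 without stimulus, 10.86 and 11.06 at 3 h and 11.12 and 11.25 at 12 h (adjusted p = 8.67e-06), Egr3 rose 3.50-fold and the Egr partner Nab2 4.30-fold. Egr1 (8.91 and 8.99 against 10.13 and 10.39, 2.48-fold, adjusted p = 0.0275) lost its call without any of the 4 arrays, with adjusted p from 0.0658 to 0.136. Myc fell back from 11.61 and 11.16 at 3 h to 9.96 and 9.69 at 12 h (adjusted p = 0.00342) and remained above its unstimulated 8.70 and 8.50 (2.34-fold, adjusted p = 0.00626), but not past the threshold once unstimulated replicate 2 was left out (adjusted p = 0.053). Mxi1, which competes with Myc for its partner Max, was 5.92-fold lower. Fos (6.96 and 6.64 against 5.49 and 4.72, adjusted p = 0.0231) lost its call without either unstimulated array (adjusted p = 0.131 and 0.0712) or 12 h replicate 2 (adjusted p = 0.158), and without unstimulated replicate 1 or 12 h replicate 2 neither of the 2 falls was called. The 6 rises became 4 without 12 h replicate 1, 12 h replicate 2 or unstimulated replicate 2.

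Among regulators of B cell identity 11 of 28 fell and 5 rose. Ets1, which restrains plasma cell formation, fell from 10.51 and 10.31 to 7.65 and 7.28 (7.69-fold, SE 0.41, adjusted p = 0.000661). The germinal centre repressor Bcl6 fell 3.88-fold, the coactivator Pou2af1 2.98-fold and Bach2, which also restrains plasma cell formation, 2.69-fold. Bhlhe40 rose 2.68-fold, Tcf4 1.90-fold and Xbp1, a regulator of the secretory pathway, 1.78-fold. The plasma cell regulators Prdm1 (3.53 and 3.44 against 3.04 and 3.63) and Irf4 (10.12 and 9.97 against 10.64 and 10.65) did not pass the threshold, with adjusted p = 0.76 and 0.0796. Irf4 had been at 12.03 and 12.01 after 3 h, and 1 of its 2 probe sets was called higher at 12 h (log2 0.82). Ikzf1 stood at 9.85 and 9.83 without stimulus and 10.33 and 10.00 at 12 h (adjusted p = 0.413). The 11 falls became 6 without unstimulated replicate 2, 7 without unstimulated replicate 1 or 12 h replicate 1, and the 5 rises became 3 without any of the 4 arrays. With housekeeping scaling or without WT replicate 2, 1 rise was left, and Xbp1 (adjusted p = 0.18) and Tcf4 (adjusted p = 0.0608) lost their calls under that scaling.

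Antigen presentation by MHC class II, which loads peptides for helper T cells, was lower almost throughout. Of 16 measured genes 14 fell and 0 rose, with a median of -1.61. The exceptions were Rfxank and Rfxap (0.18 and 0.39), subunits of the complex that binds class II promoters. Ifi30, a lysosomal thiol reductase for antigen processing, fell from 10.47 and 10.90 to 7.35 and 7.83 (8.53-fold, adjusted p = 1.84e-05). Marchf1, a ubiquitin ligase that removes class II from the surface, fell at least 7.75-fold, and the peptide-editing chains H2-DMa and H2-Oa fell 6.09-fold and 5.92-fold. The antigen-presenting chains themselves, named after their values were seen, stood apart from the unstimulated arrays at 12 h and not yet at 3 h: H2-Ab1 had 12.46 and 12.40 without stimulus, 12.35 and 12.46 at 3 h and 10.46 and 10.78 at 12 h (3.50-fold, adjusted p = 0.000205), and H2-Eb1 had 12.76 and 12.72, then 12.84 and 12.77, then 11.16 and 11.51 (2.65-fold, adjusted p = 0.00011). Ciita, the master regulator of class II, differed between the sources (5.44 and 7.21 without stimulus, 3.78 and 4.16 at 12 h), and its call (adjusted p = 0.0175) was lost in 3 of the 4 analyses that left out 1 array. The 14 falls became 10 without WT replicate 1 and 9 without WT replicate 2.

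Class II promoters carry an inverted CCAAT box, bound by NF-Y. The 250 bases before the start of each gene were searched on both strands for GATTGGC, in RefSeq's promoters on GRCm38.p6, and 3 of the 12 class II genes with a promoter held it (25.0%), against 9.65% of 14452 genes tested with a promoter. Both promoters of class II chains among them are shown, 200 bases up to the base before the start, with the box in capitals: H2-Eb1 on the + strand at chr17:34305667-34305866 and H2-Oa on the + strand at chr17:34092179-34092378. The box begins 60 and 44 bases before the start.
H2-Eb1: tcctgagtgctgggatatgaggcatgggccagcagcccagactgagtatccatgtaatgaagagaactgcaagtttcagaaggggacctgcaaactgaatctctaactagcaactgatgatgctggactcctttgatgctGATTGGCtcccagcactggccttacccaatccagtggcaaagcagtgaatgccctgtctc
H2-Oa: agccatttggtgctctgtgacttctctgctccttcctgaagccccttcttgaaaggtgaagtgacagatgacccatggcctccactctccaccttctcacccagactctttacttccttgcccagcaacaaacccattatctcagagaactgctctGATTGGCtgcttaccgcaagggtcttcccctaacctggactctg
The third was Rfx5. The box did not mark falls: it lay before 11.1% of all genes lower and 11.4% of all genes higher at 12 h. It also lay before 42.9% of the amino acid and one-carbon genes and 34.8% of the chaperone genes, lists with mostly rises among their calls. A match is a description of these letters, not a site shown to be bound.

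Surface proteins of activation and costimulation were called near the background of genes above the floor (26.9% higher and 15.4% lower, against 21.7% and 18.2%). Of 26, 7 rose and 4 fell, and the rises became 3 without 12 h replicate 2 and 4 without unstimulated replicate 1. With housekeeping scaling the balance turned, with 2 higher and 6 lower. Besides Pdcd1 and Havcr1 (at least 15.2-fold), Tfrc, which takes up iron, rose 1.93-fold from 9.57 and 9.51 to 10.41 and 10.57, a call lost with housekeeping scaling (adjusted p = 0.0611). Tfrc is itself among the 8 housekeeping genes, so that scaling takes away part of its own rise and cannot test it. Icosl, a ligand for T cells, fell from 7.69 and 7.14 to 4.28 and 3.67, at least 9.01-fold. The costimulatory receptor Cd40 fell 2.60-fold and was lower than at 3 h too (adjusted p = 0.00258). Cd86, which costimulates T cells, was 10.05 and 9.84 after 3 h and 8.03 and 7.36 after 12 h, below its unstimulated 8.93 and 8.57 (2.08-fold, adjusted p = 0.0198). That call was lost without unstimulated replicate 1 (adjusted p = 0.144) or 12 h replicate 2 (adjusted p = 0.153), and the falls then numbered 2 and 3. Cd69, an early activation marker, was at 8.78 and 8.09 without stimulus and at 7.83 and 7.42 after 12 h (adjusted p = 0.136), after 9.98 and 9.13 at 3 h. With the replicate as a block within genotype Cd69 was called lower (log2 -0.81, adjusted p = 0.00592). It was also called lower with housekeeping scaling (log2 -1.09, adjusted p = 0.0269). Of 15 TNF receptor family genes 3 rose, with log2 differences of 0.77 or less, and Cd40 alone fell; all 3 rises lost their calls without unstimulated replicate 1, without 12 h replicate 2 and with housekeeping scaling.

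Receptors for homing, adhesion and chemoattractants were lower in 12 of 21 cases, with S1pr3 the 1 rise (median -1.10). S1pr3, a receptor for sphingosine 1-phosphate, was at 3.39 and 3.43 without stimulus, 8.28 and 8.53 at 3 h and 5.83 and 6.68 at 12 h. The related exit receptor S1pr1 went the other way, from 7.70 and 7.83 to 4.15 and 4.19. Cnr2, a cannabinoid receptor that helps hold B cells in place, fell 8.39-fold, from 7.88 and 8.19 to 5.02 and 4.90, and P2ry10 7.45-fold. Cxcr5 and Ccr7, which guide B cells to follicles and T cell zones and were picked after their values were seen, kept 10.25 and 10.13, and 10.93 and 10.80, after 3 h, and were 2.65-fold and 2.42-fold below the unstimulated arrays at 12 h. Of 10 RGS genes, which shorten G protein signals downstream of such receptors, 5 rose and 1 fell. Rgs10 rose at least 3.73-fold and Rgs1 3.91-fold, and Rgs14 fell 2.95-fold; the 5 rises became 3 without unstimulated replicate 2 or 12 h replicate 2 and with housekeeping scaling.

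Cytokine receptor chains fell in 10 of 22 cases and rose in 0. Il10ra was at 7.90 and 7.73 without stimulus and at 4.30 and 4.04 after 12 h. Il17ra fell 3.29-fold, Ifngr2 3.26-fold and Il4ra, through which interleukin 4 promotes B cell growth, 2.49-fold. The count was 5 without either WT replicate. Of 21 secreted chemokines and cytokines 4 rose and 4 fell (19.0% each, against 21.7% and 18.2% of genes above the floor). Csf1, a growth factor for macrophages, rose 3.20-fold from 4.67 and 4.31 to 5.70 and 6.64, and Mif 3.05-fold. Interleukin 16 (Il16) fell 4.30-fold and Il12a 2.99-fold. The chemokines Ccl3 and Ccl4 were highest at 3 h, with 8.58 and 7.47, and 9.62 and 8.93. At 12 h the call of Ccl3 (adjusted p = 0.0373) was lost without any of the 4 arrays and that of Ccl4 (adjusted p = 0.00836) without unstimulated replicate 1 or 12 h replicate 2, which left 2 rises in the list; without WT replicate 1 there was 1.

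Genes for building ribosomes were higher together. Of 55 ribosome biogenesis factors 46 rose and 0 fell, with a median of 0.99 and a range from 0.01 to 1.86. Noc4l, a small-subunit assembly factor, had 7.20 and 7.28 without stimulus, 9.19 and 9.27 at 3 h and 8.95 and 9.23 at 12 h (3.62-fold, SE 0.18, adjusted p = 8.84e-05). Nop16 rose 3.43-fold, Grwd1 3.41-fold and Nhp2, a protein of the RNA-modifying H/ACA particles, 3.17-fold. Against 3 h, 17 of the 55 were lower at 12 h and 1 was higher. Of the 7801 genes whose mean over the 12 arrays was above the floor, 748 were lower and 1049 higher. Of 17 RNA polymerase I and III subunits 9 rose and 0 fell. Of 34 initiation factors 17 rose and 0 fell, with Eif2b3 at 3.56-fold, the repressor Eif4ebp1 at 3.13-fold and Eif1ax at 2.30-fold. Of 21 cytosolic tRNA synthetase genes 10 rose and 0 fell, led by the scaffold Aimp2 (2.36-fold) and by Farsb (2.06-fold), for which 3 of 4 probe sets rose and 1 fell (log2 -2.12). By contrast 3 of 42 cytosolic ribosomal proteins rose (0 without WT replicate 2), with a median of 0.08 that becomes negative when arrays are scaled to the housekeeping genes. These lists depended on the sources and the scaling. The 46, 9, 17 and 10 rises became 18, 4, 4 and 2 without WT replicate 1, 25, 5, 7 and 4 without WT replicate 2, and 28, 6, 6 and 2 with housekeeping scaling. Single arrays mattered for the RNA polymerases (4 without unstimulated replicate 1), the initiation factors (5 without unstimulated replicate 2, 7 without 12 h replicate 1) and the synthetases (5 without any of unstimulated replicate 1, unstimulated replicate 2 and 12 h replicate 2).

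Amino acid, nucleotide and sugar metabolism rose in part. Of 32 genes for amino acid transport, serine and one-carbon metabolism 16 rose and 1 fell (median 0.81). Asns went from 6.36 and 6.53 to 8.96 and 9.29, and Psph, the last enzyme of serine synthesis, from 7.53 and 7.10 to 9.30 and 9.49 (4.23-fold), above its 8.33 and 8.27 at 3 h (adjusted p = 0.00394). The fall was Slc38a9, a lysosomal amino acid sensor (2.68-fold). Slc7a5, a transporter of large amino acids (6.89 and 6.64 against 7.71 and 7.61, adjusted p = 0.0273), lost its call without any of the 4 arrays, with adjusted p from 0.0641 to 0.17. The 16 rises became 10 without 12 h replicate 2 or WT replicate 1, 8 without WT replicate 2 and 9 with housekeeping scaling. Of 32 genes for purines and pyrimidines 18 rose and 3 fell. Adk, which salvages adenosine, was at 4.51 and 4.74 without stimulus, 4.48 and 4.71 at 3 h and 7.38 and 7.50 at 12 h, while Dck, which salvages deoxycytidine, fell 8.65-fold from 8.02 and 7.91 to 5.27 and 4.44. The purine enzyme Pfas rose 3.48-fold and the pyrimidine enzyme Umps 3.14-fold. The 18 became 12 without unstimulated replicate 1, 7 without WT replicate 1, 8 without WT replicate 2 and 9 with housekeeping scaling. Of 27 genes for glucose uptake and use 14 rose and 3 fell; Hk2, the inducible hexokinase, rose 4.83-fold (6.36 and 5.77 against 8.23 and 8.44), Pfkp 2.65-fold, Pgam1 2.43-fold and Ldha 1.69-fold. The 3 falls, among them the transporter Slc2a3, became 0 without unstimulated replicate 1, 1 without unstimulated replicate 2 and 1 without 12 h replicate 1, and the 14 rises became 9 without WT replicate 1.

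The amino acid response element TTGCATCA, read on both strands, is bound by Atf4 and its partners. It lay before 3 of the 28 amino acid and one-carbon genes with a promoter (10.7%), against 0.74% of all 14452. Chac1, the largest rise among genes above the floor, is one of them, and its 200 bases before the start (+ strand, chr2:119351042-119351241) are shown with the element, which begins 193 bases before the start, and a CCAAT box, at 60 bases, in capitals.
Chac1: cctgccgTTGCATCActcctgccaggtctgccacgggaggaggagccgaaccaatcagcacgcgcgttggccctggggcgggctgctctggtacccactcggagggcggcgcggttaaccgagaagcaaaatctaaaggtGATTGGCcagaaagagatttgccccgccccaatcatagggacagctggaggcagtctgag
The others were Got1 (8.70 and 8.68 against 8.82 and 8.21, adjusted p = 0.691) and Slc7a11 (under the floor on all 4 arrays), neither of which was called. Asns did not hold the element in this window.

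Sterol synthesis rose and sterol export fell. Of 20 genes for cholesterol synthesis and uptake 18 rose and 0 fell, with a median of 1.40, and the 2 others, Pmvk and the regulator Srebf2, had log2 differences of 0.26 and 0.63. Cyp51, a sterol demethylase, went from 5.42 and 5.56 to 8.0 and 8.02 (5.73-fold, adjusted p = 1.2e-05). Lss, which closes the sterol rings, went from 4.98 and 5.04 through 6.22 and 6.21 at 3 h to 7.25 and 7.51 (5.16-fold). Sqle rose 4.99-fold and Idi1 4.95-fold, from 7.15 and 6.66 to 9.56 and 8.86. Against 3 h, 9 of the 20 were higher at 12 h and 0 were lower. Of the 7801 genes whose mean over the 12 arrays was above the floor, 1049 were higher and 748 lower. The 18 rises became 13 without unstimulated replicate 2, and 14 with housekeeping scaling. Of 9 genes for sterol efflux and targets of the sterol-sensing receptor LXR 4 fell and 0 rose: Abca1, Mylip and Abcg1, given above, and Abca7 (2.71-fold); Abcg1 was at 7.77 and 8.33 without stimulus, 6.41 and 6.88 at 3 h and 4.28 and 3.69 at 12 h. Of 23 genes for fatty acids 7 rose and 3 fell. The carrier Fabp5 peaked at 9.29 and 9.70 at 3 h and stood at 7.04 and 7.42 at 12 h, still 4.24-fold above its unstimulated 4.89 and 5.39, and the desaturase Scd1 fell 3.45-fold. The 7 rises became 3 without either unstimulated array, 2 without either WT replicate and 1 with housekeeping scaling, and the 3 falls became 1 without unstimulated replicate 2 or 12 h replicate 1.

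SREBP factors activate sterol genes together with NF-Y. The classical sterol element TCACCCCAC was in the promoter of 1 of the 16 cholesterol genes with one (6.25%; all genes, 0.63%), Hmgcs1, and the CCAAT box GATTGGC in 9 of 16 (56.2%; all genes, 9.65%). The E-box CACGTG, which Myc family and SREBP factors can bind, was in 4 of 16 (25.0%; all genes, 8.73%). Hmgcs1 is shown with its sterol element in capitals (+ strand, chr13:119690151-119690350, 137 bases before the start), followed by the 3 CCAAT box genes that rose most, Lss (+ strand, chr10:76531405-76531604, 63 bases), Idi1 (+ strand, chr13:8885406-8885605, 46 bases) and Mvd (- strand, chr8:122443423-122443622, 28 bases, where the box reads GCCAATC on the gene's strand).
Hmgcs1: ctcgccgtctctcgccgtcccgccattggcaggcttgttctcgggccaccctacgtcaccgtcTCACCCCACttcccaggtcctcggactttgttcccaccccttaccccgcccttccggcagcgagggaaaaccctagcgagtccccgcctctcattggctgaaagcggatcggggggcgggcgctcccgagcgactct
Lss: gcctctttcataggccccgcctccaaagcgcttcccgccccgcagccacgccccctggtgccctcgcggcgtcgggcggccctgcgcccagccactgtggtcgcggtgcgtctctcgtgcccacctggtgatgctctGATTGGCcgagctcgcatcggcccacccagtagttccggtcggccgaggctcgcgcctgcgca
Idi1: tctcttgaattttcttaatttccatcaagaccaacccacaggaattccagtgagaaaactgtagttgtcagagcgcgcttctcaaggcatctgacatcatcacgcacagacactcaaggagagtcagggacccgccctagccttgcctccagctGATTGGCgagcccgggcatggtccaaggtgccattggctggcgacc
Mvd: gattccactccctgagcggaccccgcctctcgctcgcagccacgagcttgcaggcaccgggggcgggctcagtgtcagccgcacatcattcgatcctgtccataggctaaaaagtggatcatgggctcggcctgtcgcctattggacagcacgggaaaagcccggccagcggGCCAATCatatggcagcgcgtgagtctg
Hmgcs1, the first committed enzyme, rose 2.41-fold from 9.54 and 9.75 to 10.81 and 11.02, and Mvd at least 2.90-fold from 3.94 and 3.85 to 5.52 and 5.97. The E-box was in the promoters of 3 of 47 ribosome biogenesis genes (6.38%), and lay before 13.0% of all genes higher and 10.0% of all genes lower at 12 h.

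Mitochondrial genes were higher at 12 h, the respiratory chain mostly after 3 h and the mitochondrial ribosome in part already at 3 h. Of 68 respiratory chain and ATP synthase subunits 45 rose and 0 fell (median 0.68), and 37 were higher and 0 lower at 12 h than at 3 h. Relative to the unstimulated mean, the list's median was 0.08 and 0.16 on the 3 h arrays and 0.66 and 0.70 on the 12 h arrays. Ndufb2, of complex I, had 7.49 and 7.65 without stimulus, 8.38 and 8.20 at 3 h and 9.01 and 9.42 at 12 h (3.12-fold, adjusted p = 9.23e-05). The ATP synthase subunit Atp5g1 rose 3.06-fold and Uqcrq, of complex III, 2.97-fold. Of 74 mitochondrial ribosomal proteins 59 rose and 0 fell, with a median of 0.91, and 21 were higher and 0 lower at 12 h than at 3 h. The list's median was 0.54 and 0.52 on the 3 h arrays and 0.86 and 0.88 on the 12 h arrays. For both lists, the background against 3 h is 1049 higher and 748 lower of 7801 genes. These are the genes whose mean over the 12 arrays was above the floor. Mrps25, among the late genes, was at 5.66 and 5.73, 5.77 and 5.81, and 7.27 and 7.61 in the 3 conditions in turn (3.35-fold), and Mrps28, already at 8.48 and 8.20 at 3 h against 7.14 and 7.20 without stimulus, rose 3.85-fold. The 45 became 30 without unstimulated replicate 1 and the pair of counts became 20 and 30 without WT replicate 1, 22 and 32 without WT replicate 2, and 13 and 30 with housekeeping scaling.

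**Figure D2:**
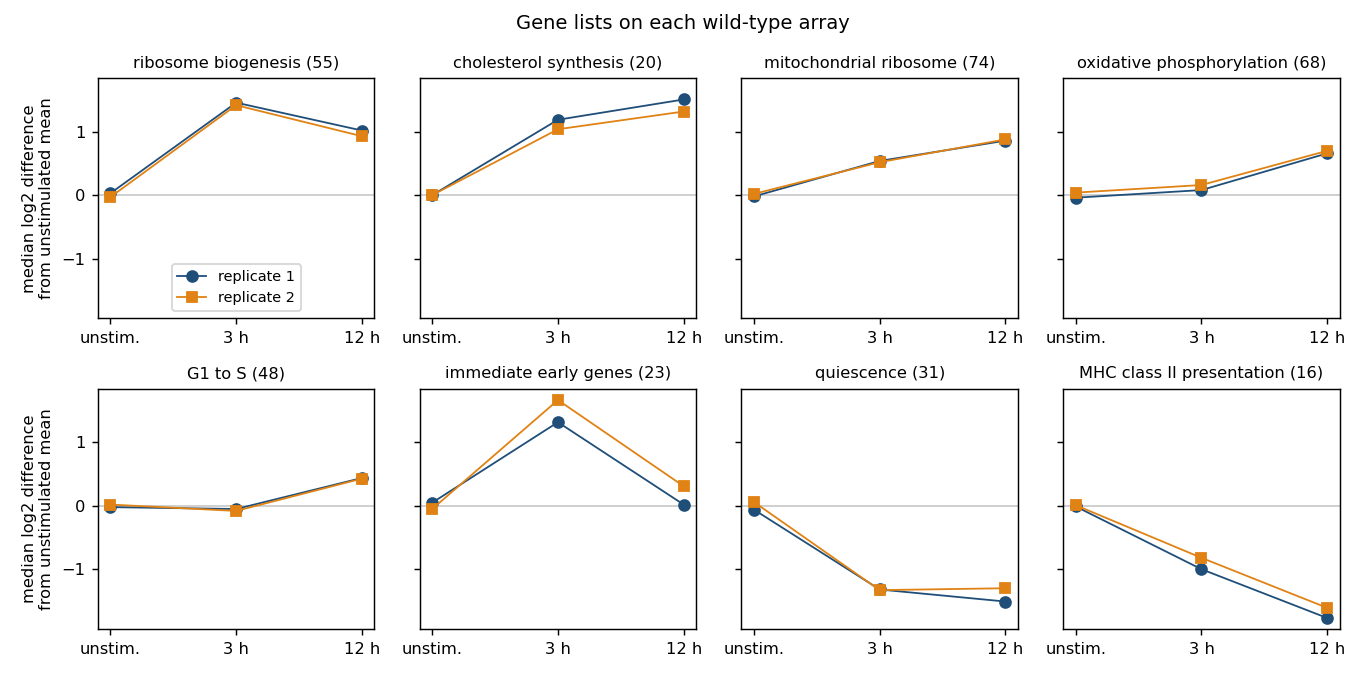
Each panel shows 1 gene list (number of measured genes in brackets): the y axis is the median over its genes of the log2 signal minus the gene's unstimulated mean, the x axis the 3 wild-type conditions, and the symbols the 2 replicates. Immediate early genes peak at 3 h (1.32 and 1.67) and ribosome biogenesis genes are highest there (1.46 and 1.42), while oxidative phosphorylation and G1 to S genes lie above 0.4 only at 12 h.

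Protein quality control was higher as well. Of 37 proteasome subunits 28 rose and 2 fell. Psmd7 rose 3.14-fold, Psme3, an activator of the nuclear proteasome, 2.80-fold and Psmb3 2.37-fold, from 10.59 and 10.73 to 11.71 and 12.09. The falls were the immunoproteasome subunits Psmb10 (1.92-fold), lost without unstimulated replicate 2, and Psmb9 (1.62-fold), lost without either unstimulated array or 12 h replicate 2. Of 27 heat shock proteins and chaperonin subunits 20 rose and 0 fell. Hspd1 and Hspe1, the mitochondrial chaperonin pair, rose 2.82-fold and 2.49-fold, Hspa9 2.52-fold and Hsph1 3.08-fold. Hspa1a and Hspa1b, stress-inducible and picked after their values were seen, moved against the list without passing the threshold: Hspa1a was at 6.99 and 7.09 without stimulus and at 3.50 and 4.37 at 12 h (adjusted p = 0.0579), and Hspa1b at 7.86 and 7.62 and at 3.69 and 5.44 (adjusted p = 0.118). Of 30 genes for the unfolded protein response and folding in the endoplasmic reticulum 13 rose and 3 fell. Pdia6, a disulfide isomerase, rose 1.97-fold, while the stress sensor Eif2ak3 fell 6.28-fold, from 10.34 and 9.97 to 7.20 and 7.81, and the oxidase Ero1b 5.63-fold. The 28, 20 and 13 rises became 14, 7 and 3 without WT replicate 1, 19, 6 and 5 without WT replicate 2, and 11, 6 and 3 with housekeeping scaling. Single arrays cut the chaperones to 11 and 13 (without unstimulated replicate 2 or 12 h replicate 1) and the folding genes to between 6 and 8 (without any of the 4).

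Transport and degradation compartments moved less. Of 42 nuclear pore and transport genes 16 rose and 3 fell, with Nup43 at 2.78-fold, the Ran exchange factor Rcc1 at 2.59-fold and Nup37 at 2.57-fold; the rises became 7 without unstimulated replicate 2 and 9 without 12 h replicate 1, and the falls were 0 to 2 in each single leave-out. Without WT replicate 1, without WT replicate 2 and with housekeeping scaling, 4, 5 and 5 of the 16 rises were left. Of 39 lysosomal genes 9 rose and 5 fell (23.1% and 12.8%, against 21.7% and 18.2% of genes above the floor). Among them the glucosidase Gaa was up 3.36-fold and the membrane protein Scarb2 down 2.85-fold. The rises became 6 without either unstimulated array or 12 h replicate 2, and the falls 2 and 3 without unstimulated replicate 2 and 1. With the replicate block 16 lysosomal genes rose, and 2 with housekeeping scaling or without WT replicate 2. Of 15 Toll-like receptors and nucleic acid sensors 4 fell and 1 rose; the DNA sensor adaptor Sting1 was at 9.23 and 9.73 without stimulus, 4.96 and 5.84 at 3 h and 7.07 and 7.59 at 12 h (4.45-fold lower). The rise, Cd180, was lost without either unstimulated array or 12 h replicate 2.

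**Figure D3:**
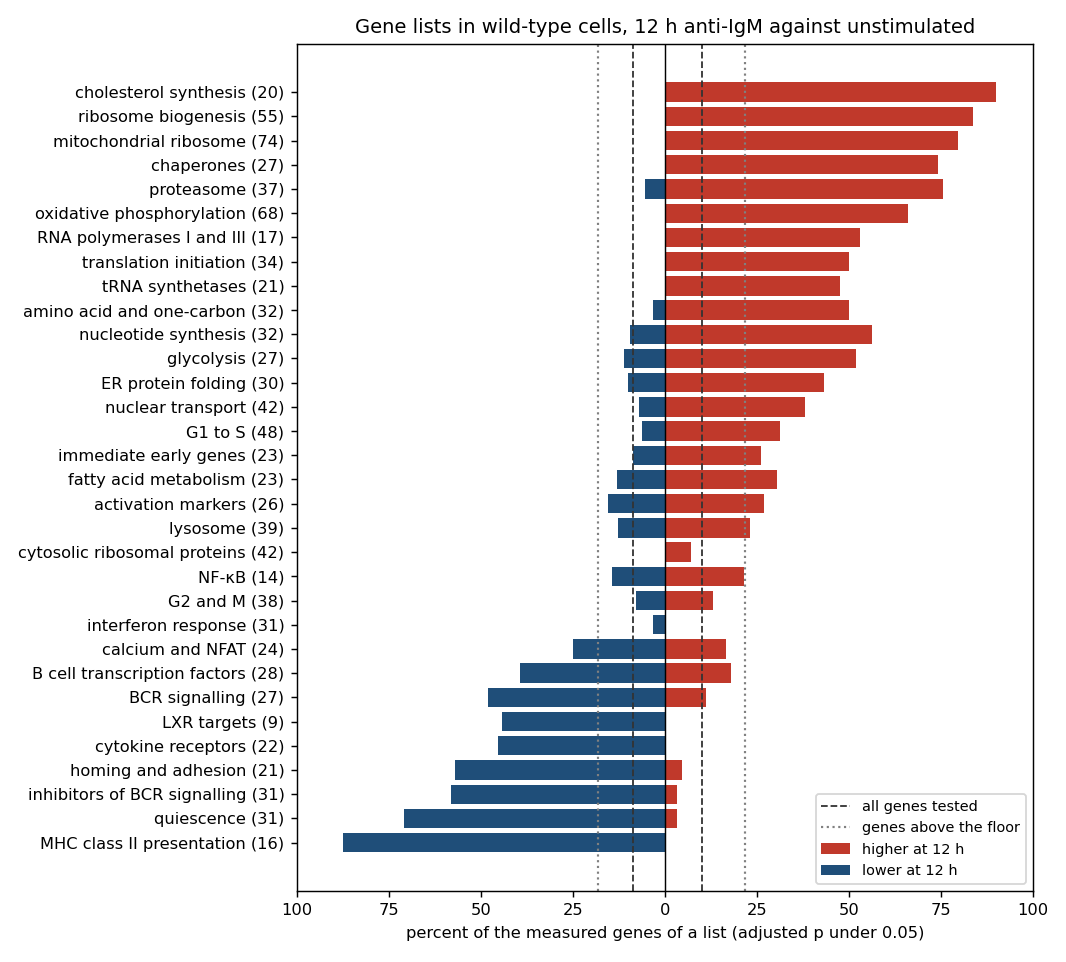
Share of the measured genes of each list (number in brackets) that were higher (right, red) or lower (left, blue) at 12 h than without stimulus at an adjusted p under 0.05; the x axis is in percent. Dashed lines mark the share among all genes tested (10.1% higher, 8.66% lower) and dotted lines that among genes above the floor (21.7% and 18.2%). Lists for growth lie on the right and those for MHC class II, quiescence, homing and BCR inhibitors on the left.

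Genes of quiescence were lower in 22 of 31 cases and higher in 1, with a median of -1.39. Klf2, which keeps lymphocytes resting and recirculating, fell from 9.41 and 9.85 to 6.54 and 6.63 (8.25-fold, adjusted p = 2.41e-05), and Tsc22d3, a glucocorticoid-induced factor, 7.90-fold. Gabarapl1, of the autophagy machinery, rose 5.55-fold, from 5.71 and 5.66 to 7.91 and 8.41. Cell cycle genes of G1, brakes as well as a cyclin, were lower in part. Among 18 G1 cyclins, kinases and inhibitors 5 fell (27.8%) and 1 rose (5.56%), against 18.2% and 21.7% of genes above the floor. Cdk4, the G1 kinase, rose 2.74-fold, from 8.86 and 8.68 to 10.17 and 10.28. Cdkn1b, which blocks cyclin-dependent kinases, fell 3.03-fold, Cdkn2d at least 2.44-fold, the pocket protein Rbl2 3.00-fold and the cyclin Ccnd3 3.22-fold. Rbl2 was lowest at 3 h (4.52 and 4.44) and higher again at 12 h (5.82 and 5.73, adjusted p = 0.000885). Ccnd2, at 9.81 and 9.33 without stimulus and 10.79 and 10.18 at 12 h, missed the threshold (adjusted p = 0.0686) on the probe set that stands for it here, while 6 of its 7 probe sets were called higher (log2 0.83 to 1.96 over the 7).

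Replication genes were higher in part. Mitotic genes were called at shares near those of all genes tested, 13.2% higher and 7.89% lower against 10.1% and 8.66%. DNA methylation and Polycomb genes were called at 17.4% higher and 4.35% lower. Both shares lie under the 21.7% and 18.2% of genes above the floor, so this list does not stand out by rises. Of 48 G1 to S and DNA replication genes 15 rose and 3 fell against unstimulated cells (median 0.39), and 20 were higher and 0 lower at 12 h than at 3 h. Against 3 h, 1049 were higher and 748 lower of the 7801 genes whose mean over the 12 arrays was above the floor. Rfc4, which loads the polymerase clamp, had 4.63 and 4.33, 5.08 and 4.72, and 6.56 and 6.80 in the 3 conditions in turn (4.60-fold, adjusted p = 0.00063). The polymerase subunit Pole2 rose at least 3.07-fold, Uhrf1, which maintains DNA methylation, 3.34-fold and Pold2 2.95-fold; E2f2 fell at least 3.21-fold. The E2F site TTTCGCGC, read on both strands, was in 6 of the 40 promoters of these genes (15%; all genes, 0.471%). Of the 6, Mcm5 and Uhrf1 were called higher, and Mcm6, Orc1, Rfc3 and Dnmt1 were not called. Of 38 G2 and mitosis genes 5 rose and 3 fell, with a median of -0.03. Cdc25b, a phosphatase for entry into mitosis, fell at least 8.51-fold, Ndc80 at least 3.44-fold and Cenpa 2.79-fold, and each was near its 12 h level already at 3 h. The 15 rises became 9 without 12 h replicate 1 and 10 without unstimulated replicate 1 or 2, and the 5 mitotic rises became 1 without unstimulated replicate 1 and 2 without unstimulated replicate 2 or 12 h replicate 2. With housekeeping scaling 0 mitotic genes rose and 9 fell, and 7 replication genes rose and 5 fell; without WT replicate 1, 5 replication and 0 mitotic genes rose. Of 23 DNA methylation and Polycomb genes 4 rose and 1 fell, with Ezh2 up 2.29-fold, Bmi1 2.17-fold and Cbx7 down 3.27-fold; without unstimulated replicate 2 or 12 h replicate 2 there were 2 falls, with housekeeping scaling 4, and without either WT replicate 2 rises.

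Survival genes of the BCL2 family did not move one way. Of 5 protective members 2 rose and 2 fell. Bcl2l1, which encodes BCL-XL, rose 2.56-fold, from 5.91 and 6.44 to 7.36 and 7.71, with 1 of its 4 probe sets called (log2 -0.02 to 1.36). Mcl1 fell 1.88-fold, from 11.61 and 11.68 to 10.64 and 10.83. The other fall, Bcl2, was lost without unstimulated replicate 1 or 12 h replicate 2, and the other rise, Bcl2l2, without unstimulated replicate 1 or 12 h replicate 1. Of 10 members that promote death Bid rose 2.23-fold and Bmf fell 4.61-fold, from 8.66 and 9.13 to 6.43 and 6.96. Bcl2l11, which encodes BIM and is known to kill BCR-stimulated B cells, was at 11.87 and 11.25 without stimulus and at 11.88 and 11.78 at 12 h (adjusted p = 0.467). The mean of its 5 probe sets was higher by 0.53 (adjusted p = 0.0191).

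Type I interferon genes separated the 2 sources more than the 2 conditions. Relative to the unstimulated mean, the median of 31 such genes was 0.77 in replicate 1 and -0.77 in replicate 2 without stimulus, and 0.15 and -1.51 at 12 h. Ifit3 was at 10.07 and 5.63 without stimulus and at 6.44 and 3.68 at 12 h (adjusted p = 0.384). Of the 31 genes 1 fell, Ifit1bl1, whose groups were 9.62 and 7.87 against 4.53 and 2.87 (at least 20.7-fold, adjusted p = 0.0132) and whose call was lost without unstimulated replicate 1 (adjusted p = 0.107) or 12 h replicate 2 (adjusted p = 0.0952). With the replicate as a block 13 of the 31 fell and 2 rose.

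The 12 h cells were then set against the 3 h cells directly. There 1182 genes (6.50%) were higher and 788 (4.33%) lower at 12 h. Genes that came up late include Adk, Acot7 (4.36 and 3.92 at 3 h, adjusted p = 0.000262), Atxn1 (3.85 and 3.77 at 3 h, adjusted p = 6.54e-05) and Vav3 (4.89 and 5.36 at 3 h, adjusted p = 0.000665). Genes that had come down from a peak include S1pr3, Fabp5, Rgs1 (8.97 and 8.48 at 3 h, 6.82 and 7.02 at 12 h) and Cd274, which encodes the ligand PD-L1 (8.06 and 7.80 at 3 h, 4.03 and 4.61 at 12 h, adjusted p = 0.000952). Late falls beyond Pik3ip1 include Dusp1 (8.17 and 7.62 at 3 h) and Tsc22d1 (9.13 and 9.23 at 3 h, 6.61 and 7.56 at 12 h). With the replicate as a block within genotype this comparison gave 3090 genes, and without 3 h replicate 1, 3 h replicate 2 or 12 h replicate 2 it gave 1055, 1296 and 1124.

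Cells with the IkL/L alleles, compared with their own unstimulated arrays, gave log2 differences made of separate arrays. The calls in both genotypes rest on the same spread per gene, pooled over all 6 groups, so the 2 sets of calls are not independent. In them 1769 genes (9.72%) were higher and 1432 (7.87%) lower, 3201 in all. Of the wild-type calls 2420 were called in the same direction there, which is 70.9% of the wild-type and 75.6% of the IkL/L calls, and 1 in the opposite direction. Over the 7801 genes whose mean over all 12 arrays was above the floor, the 2 responses correlated with r = 0.894, a description across genes, which are not independent replicates and were normalised together. The same lists gave 43 ribosome biogenesis, 49 mitochondrial ribosome and 17 cholesterol genes higher in IkL/L cells and 11 MHC class II genes lower. Pdcd1 rose by 4.42 on the log2 scale in IkL/L cells and by 3.35 in wild-type cells, and Ets1 fell by 2.11 and by 2.94. A test of the difference between the 2 responses called 4 genes (0.022%; 1126 at an unadjusted p under 0.05): Axl, Ccl22, Rnf125 and Tceal8. Rnf125 was 5.94 and 5.88 in unstimulated wild-type cells and fell to 3.21 and 2.99, while it was under the floor in all 4 IkL/L arrays, 3.14 and 3.83 without stimulus and 3.09 and 2.84 at 12 h. For the other genes the difference between genotypes did not pass the test, which does not show that they respond alike. Of the Xist and Y-linked transcripts, wild-type replicate 1 has the female and all other arrays of these groups the male pattern, and its part in the genotype comparison was not tested.

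**Figure D4:**
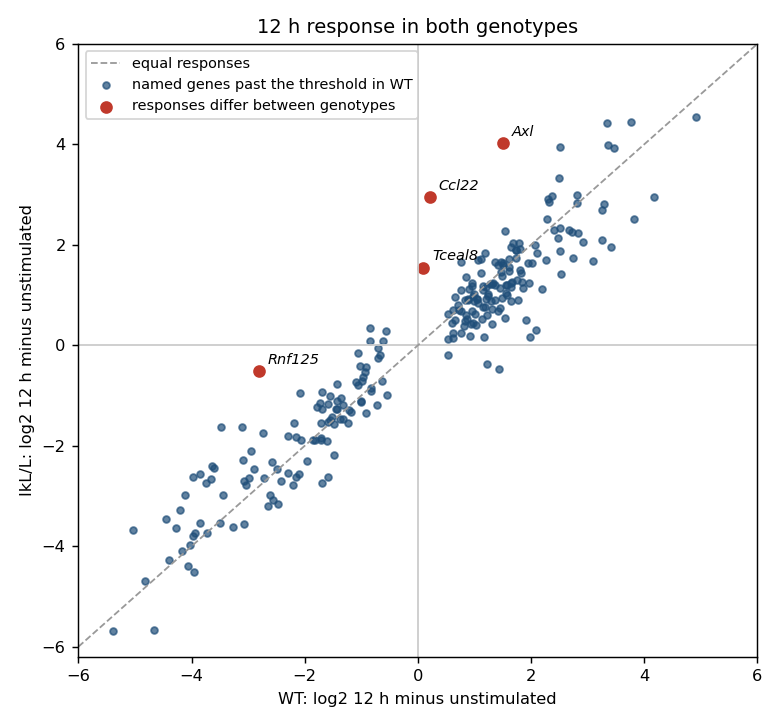
Log2 difference of 12 h against unstimulated in wild-type (x axis) and IkL/L cells (y axis) for the 247 named genes past the threshold in wild-type cells (blue) and the 4 genes whose responses differ between genotypes (red); the dashed line marks equal responses. Most points lie near the line, and Axl, Ccl22, Tceal8 and Rnf125 lie above it.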

How the data were processed

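RNA of sorted follicular B cells (100 ng a sample, labelled with biotin in 2 cycles, per the labels' protocols) was hybridised to Affymetrix 3' arrays, 12 in all. The authors deposited log2 probe set signals summarised with RMA (version not given in the sources used here), as the labels state per the submitters' processing notes. RMA makes arrays alike in distribution, so signals are relative to each array. Of 45037 probe sets, 34945 had 1 gene symbol, 932 several and 9160 were not listed in the platform annotation. The probe set with the highest mean over the 12 arrays stood for each of 18193 genes (9010 had more than 1). For many named genes other probe sets were not called, and each fold given is that of the brightest probe set alone. Among these were Cflar (1 of 5 called, log2 -0.05 to 2.52), Spred1 (1 of 8, -0.20 to 0.94) and Kbtbd11 (1 of 4, -4.17 to 0.07). Other such rises were Uqcrq (1 of 4, -0.05 to 1.57) and Atp5g1 (1 of 2, 0.04 to 1.62). The same held for Mrps25 (1 of 3, 0.03 to 1.74) and Lss (1 of 3, 0.12 to 2.37). Such falls were Eif2ak3 (1 of 3, -2.65 to -0.05) and Icosl (1 of 2, -3.44 to 0.05). For others, such as Noc4l (4 of 4) and Vim (3 of 3), all probe sets were called.

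The fit used limma 3.58.1 (R 4.3.3) on the 12 arrays together, each of the 6 groups having its own mean, with 6 residual and 3.95 prior degrees of freedom, and every adjusted p is limma's with Benjamini-Hochberg adjustment over 18193 genes. "At least" folds raise the lower group to the floor of 4.21. The fit was also run on simulated data whose noise was drawn independently for each array. That run could not test the fit under the pairing of replicates described below. Tables and plots were made with Python 3.11.15, pandas 2.3.3 and matplotlib 3.10.9. RefSeq promoters (GRCm38.p6) were matched by symbol for 14452 genes.

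Members and gene lists were chosen with earlier results of these data known. Named genes are the 15 largest rises and falls with all arrays above the floor, the 8 largest of each with an array under it, up to 4 of each direction in each of 43 lists, and a fixed set that includes Myc, Egr1, Cd69 and Cd86. The largest rises and falls were taken only among called genes whose groups do not overlap, so their separation follows from the rule. Provisional gene names were left out of them. Genes named outside this rule after their values were seen are the cell markers, H2-Ab1, H2-Eb1, Ciita, Rfx5, Rfxank, Rfxap, Cxcr5, Ccr7, Hspa1a, Hspa1b, Ifit3, Pmvk, Srebf2, Hmgcs1, Mvd, Got1, Slc7a11, Mcm5, Mcm6, Orc1, Rfc3, Dnmt1 and the 4 genes that differ between genotypes.

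Replicate numbers pair the samples within a genotype: over 6064 genes, the deviations of same-numbered arrays from their group means correlated with r from 0.546 to 0.619 in wild-type and from 0.354 to 0.49 in IkL/L cells, against 0.0263 to 0.31 across genotypes. With this replicate block 4498 genes were called, among them 3413 of the 3415. Alternatives covered the block, the arrays fitted, probe set choice, dim genes, the prior, array weights, scaling, the floor and leaving out arrays.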

Additional observations from a re-analysis of the deposited data

Results flagged for a closer look

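Axl, a receptor kinase for apoptotic cells, rose further in IkL/L than in wild-type cells: from 3.14 and 3.07 to 7.22 and 7.04 against from 2.81 and 2.89 to 4.56 and 4.14, a difference of the 2 responses of 2.52 on the log2 scale (limma, adjusted p = 0.00429). Ccl22, a chemokine that attracts T cells, differed by 2.74 (adjusted p = 0.00326), with 3.51 and 3.62 against 3.90 and 3.65 in wild-type and 3.69 and 3.77 against 6.54 and 6.82 in IkL/L cells. Rnf125, a ubiquitin ligase, differed by 2.29 (adjusted p = 0.0497) and Tceal8 by 1.46 (adjusted p = 0.0488); the wild-type signals of Tceal8 were under the floor on all 4 arrays. Each was singled out because the test of the difference between genotypes passed the threshold. Outside the genes tested, 785 of 9160 probe sets with no listed symbol changed in wild-type cells at 12 h, 150 higher and 635 lower, and so did 139 of 932 with several symbols, 97 higher and 42 lower.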

How the results depend on the processing

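The count of 3415 genes changed at 12 h was 2214 with values raised to the floor, and 1589 to 2784 when arrays were left out, by single array or by WT replicate. It lay between 2735 and 4498 under the other settings, with 4498 under the replicate block within genotype and 4156 under a replicate block shared by both genotypes. Against 3 h the 1970 genes became 3090 with the replicate block within genotype, 1140 with housekeeping scaling, 909 with the floor and 412 to 1595 when arrays were left out. The 3201 genes of IkL/L cells became 5796 (495 higher and 5301 lower) with housekeeping scaling, 1924 with the floor and 1905 to 2606 when arrays were left out. The 4 genes that differ between genotypes became 26 with the replicate block within genotype, 19 with the shared replicate block, 13 with the mean of all probe sets, 7 with an intensity trend, 2 with housekeeping scaling, 38 with the floor and 0 to 7 when arrays were left out. The replicate block removed the call of 0 of the 247 named genes that passed. Among the named genes not called, the block within genotype gave calls to Cd69 (adjusted p = 0.00592), Ccnd2 (adjusted p = 0.0289) and Irf4 (adjusted p = 0.0487). Beyond the interferon and lysosomal lists, it moved only list counts of 5 or fewer by over 1.5 times, such as falls of G1 to S and of mitotic genes from 3 to 5 each and rises of ribosomal proteins from 3 to 5. Of the 247, 142 passed in every setting, 38 were lost with housekeeping scaling, 56 with the floor, 66 and 78 without WT replicate 1 and 2, and 27 to 48 without a single array. None of the 247 changed direction; of the named genes not called, Prdm1 (-0.15) became 0.15 without 12 h replicate 1 and 0.19 without WT replicate 1, and Bcl2l11 (0.27) became -0.01 with housekeeping scaling and -0.04 without unstimulated replicate 2. The causes were not tested. With 2 arrays a group and signals near background for many genes, small changes of dim genes cannot be resolved.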
